A study of Mus musculus with 8 samples.

Results

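The regulators of G protein signalling (RGS) examined here were 10 genes taken by symbol from the gene table of mouse striatum: Rgs2, Rgs4, Rgs7, Rgs8, Rgs9, Rgs10, Rgs12, Rgs14, Rgs16 and Rgs17. They are 10 of the 55032 genes in the table, and all 10 were among the 18294 genes with enough counts to be tested. Striatum was dissected at postnatal day 60 from 4 wild type (WT) females and 4 females heterozygous for the 16p11.2 deletion (16p11.2+/-), all on a C57BL/6 background, and the RNA of each mouse was sequenced as its own library. The deletion is inherited and present in all tissues of a 16p11.2+/- mouse, so the model is not limited to the striatum or to neurons. Mice are named by their number, with WT- or, for 16p11.2+/- mice, the prefix DF- of the labels. Expression is given as FPKM, reads scaled to gene length and to the mouse's total of counted reads, which allows levels of different genes to be set side by side. Genotypes were compared by fitting the counts of all genes in edgeR (quasi-likelihood test), with a negative log2 fold change for lower expression in 16p11.2+/- mice.

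RGS proteins shorten G protein signals. Each carries an RGS domain that speeds the hydrolysis of GTP by a G alpha subunit, so that a receptor's message ends sooner. In the striatum they act downstream of dopamine, opioid, muscarinic and adenosine receptors. Rgs2, Rgs4, Rgs8 and Rgs16 belong to the small R4 subfamily, Rgs7 and Rgs9 to the R7 subfamily that needs the G beta subunit Gnb5, Rgs10, Rgs12 and Rgs14 to the R12 subfamily, and Rgs17 to the RZ subfamily. Rgs9 is known as the RGS gene of medium spiny neurons, the principal cells of the striatum, and Rgs16 is known in the brain for its expression in the thalamus.

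The promoter stretches of 3 members are shown because the results turn on these genes. Rgs4 was the most abundant member, and Rgs9 and Rgs16 varied most between mice. Each stretch is the 250 bases before the first base of the RefSeq transcript (GRCm38.p6), written 5′ to 3′ on the strand of the gene. Rgs4 is read from chr1:169747643-169747892 (minus strand), Rgs9 from chr11:109298182-109298431 (minus strand) and Rgs16 from chr1:153740103-153740352 (plus strand). Capitals mark the TATA box letters TATAAA, the CCAAT box, the GC box letters GGGCGG, the E box letters CACGTG and the letters TGACG that form the core of a cAMP response element, each on either strand.
Rgs4: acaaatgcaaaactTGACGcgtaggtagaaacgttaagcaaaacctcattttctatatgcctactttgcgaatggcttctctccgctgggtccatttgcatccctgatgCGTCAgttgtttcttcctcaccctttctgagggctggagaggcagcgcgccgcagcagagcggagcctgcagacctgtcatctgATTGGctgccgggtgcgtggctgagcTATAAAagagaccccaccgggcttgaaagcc
Rgs9: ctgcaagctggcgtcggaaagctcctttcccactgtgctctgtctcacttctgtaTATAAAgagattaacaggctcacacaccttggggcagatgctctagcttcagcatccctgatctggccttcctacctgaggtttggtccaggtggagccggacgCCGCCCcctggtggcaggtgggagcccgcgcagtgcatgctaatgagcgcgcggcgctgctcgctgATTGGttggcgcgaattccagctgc
Rgs16: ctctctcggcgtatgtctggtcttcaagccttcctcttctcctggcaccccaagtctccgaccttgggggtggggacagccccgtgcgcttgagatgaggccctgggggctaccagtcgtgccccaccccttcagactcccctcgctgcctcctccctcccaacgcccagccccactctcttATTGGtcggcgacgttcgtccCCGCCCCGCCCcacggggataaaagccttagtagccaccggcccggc
Rgs4 held TATAAA 31 bases before the start, together with 2 copies of TGACG, a letter run present in 17.8% of all 32851 promoter stretches of this length. Rgs9 held TATAAA 195 bases before the start, CCAAT 25 bases before it and 1 GC box. TATAAA was present in 12.4% of all stretches, CCAAT in 33.8% and GGGCGG in 32.7%. Rgs16 held 2 overlapping GC boxes and 1 CCAAT, with none of the other letters. Of the 10 members, 9 had an entry, with 12 stretches in all, and Rgs14 had none. Rgs2 held 2 copies of TGACG and 4 GC boxes, and Rgs7 held the E box, which 6.02% of all stretches hold. No stretch of a member held the whole element TGACGTCA, found in 1.55% of all. A run of letters is not evidence of binding.

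Some libraries stood apart before any RGS gene was considered. Between 15125051 and 16523429 reads per mouse were counted on genes. The genotype labels were borne out by the deleted segment of chromosome 7, where all 17 genes called lower lay between 126695401 and 127208468. Their mean log2 CPM (log2 of counts scaled to library size) was at least 5.688 in WT mice and at most 4.796 in 16p11.2+/- mice. These genes were chosen as lower in the same fit, so this gap is not a separate check of the labels. The summed FPKM of 10 medium spiny neuron markers, among them Ppp1r1b and Bcl11b, ran from 1020 to 1733 in WT mice, whereas it was 1620 in DF-1018, 1504 in DF-1059, 408 in DF-1037 and 319 in DF-1062. All 10 of these markers were below every WT mouse in DF-1037 and in DF-1062. The sum of 10 thalamus markers, among them Tcf7l2 and Rora, was 53.2, 67.3 and 35.9 in WT-1015, WT-1041 and WT-1061, 158 in DF-1018, 59.3 in DF-1059, and 296, 275 and 289.9 in WT-1063, DF-1037 and DF-1062. Choroid plexus markers (Ttr, Kl) summed to 4449 in WT-1063 and 481 in WT-1015, against 8.14 to 128 in the other mice. Cortical markers (among them Slc17a7) summed to 224 in DF-1037 and to between 54.5 and 164 in the others. Sums of the oligodendrocyte markers (among them Mbp) were 2153 to 2529 in WT and 1371 to 1889 in 16p11.2+/- mice, those of the microglia markers (Cx3cr1, P2ry12) 114 to 154 and 96.2 to 142, and those of endothelial and mural markers (Cldn5, Pecam1) 49.0 to 62.0 and 43.2 to 72.5. Astrocyte markers (Gfap, Aqp4) summed to 603 to 646 and 579.6 to 709, hippocampal markers (Prox1, Wfs1) to 140.0 to 176 and 145 to 184, and interneuron markers (among them Chat and Slc5a7) to 259 to 319 and 268 to 407. The interneuron sum of 407 was that of DF-1037, where Chat (0.914) and Slc5a7 (2.60) were below every WT mouse. Pvalb (102.6) and Sst (155) were above every WT mouse there. In such bulk tissue, fewer cells of a type, less RNA per cell and a different mix of tissue in the dissected piece cannot be told apart.

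WT striatum expressed the 10 members over a wide range. Mean FPKM in WT mice was highest for Rgs4 at 178 ± 44.4 (SD, n = 4), followed by Rgs9 at 48.3 ± 11.18 (SD, n = 4), Rgs2 at 23.7 ± 3.28 (SD, n = 4) and Rgs8 at 22.3 ± 3.07 (SD, n = 4). Rgs17 followed at 16.7 ± 1.49 (SD, n = 4), Rgs10 at 11.96 ± 2.48 (SD, n = 4), Rgs7 at 9.57 ± 0.646 (SD, n = 4) and Rgs14 at 9.52 ± 1.47 (SD, n = 4). The lowest were Rgs16 at 6.88 ± 9.32 (SD, n = 4) and Rgs12 at 3.84 ± 0.195 (SD, n = 4). The WT ranges of Rgs4 and Rgs9, of Rgs9 and Rgs2, and of Rgs8 and Rgs17 did not overlap. All other neighbours in this order had overlapping ranges. Of these, Rgs17 was above Rgs10 within each of the 4 WT mice, whereas the order of the remaining neighbours changed from one WT mouse to another. Rgs4 supplied between 45.1% and 58.3% of the summed FPKM of the 10 members in WT mice, between 52.0% and 55.3% in 3 of the 16p11.2+/- mice and 33.7% in DF-1062. Rgs9 took place 2 of 10 in the 4 WT mice, DF-1018 and DF-1059, but place 6 in DF-1037 and place 8 in DF-1062. Rgs16 took place 10 in 3 WT mice and in DF-1059, place 9 in DF-1018, place 5 in DF-1062, place 4 in WT-1063 and place 2 in DF-1037. Rgs4 was first in all 8 mice.

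**Figure D1:**
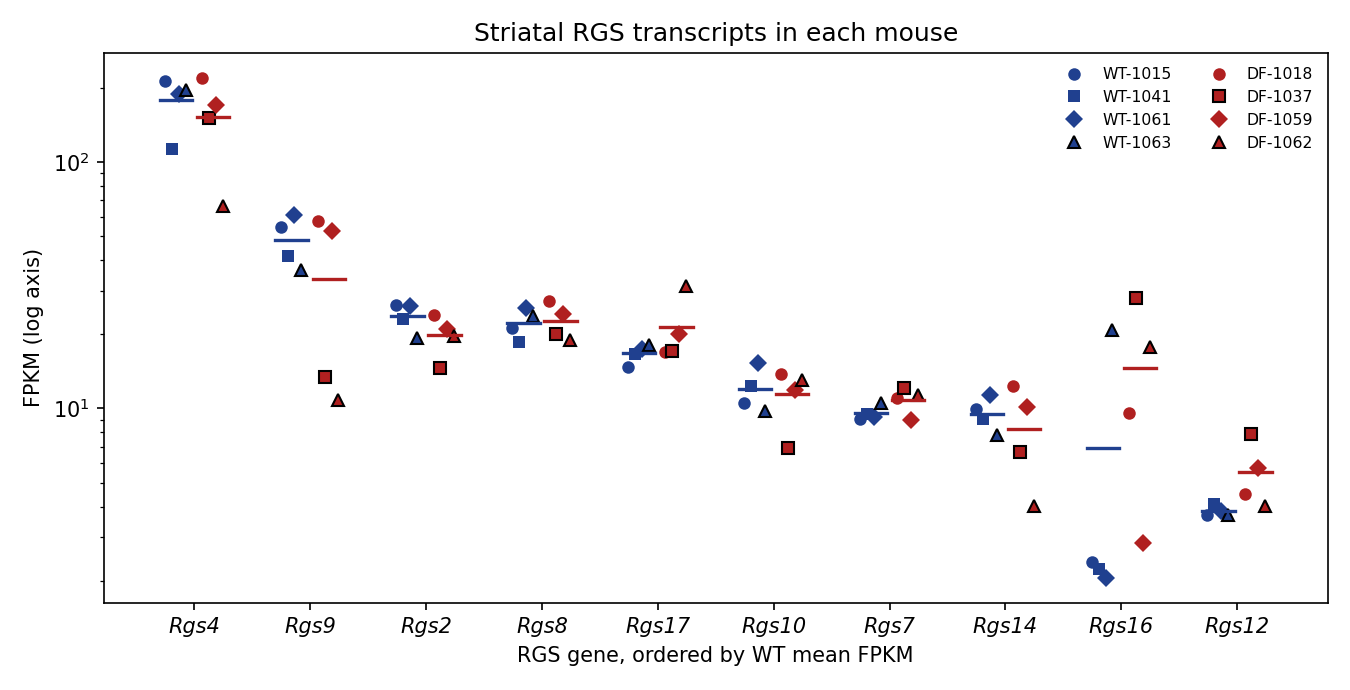
FPKM (log axis) of the 10 RGS genes in each of the 8 mice, with WT mice in blue, 16p11.2+/- mice in red, one symbol per mouse and a horizontal line at each group's mean; black outlines mark WT-1063, DF-1037 and DF-1062, the mice with the highest thalamus marker sums. The groups overlap for every gene, Rgs9 is low in DF-1037 and DF-1062, and Rgs16 is high in WT-1063, DF-1037, DF-1062 and, less so, DF-1018.

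Across the members, 0 of 10 passed an adjusted p of 0.05 over all genes tested, where 0.109% of genes did. At an unadjusted p under 0.05, 1 of 10 members (Rgs12) was called, against 4.32% of all genes. None of the 10 had groups that did not overlap in FPKM, against 2.83% of all genes. The fitted log2 fold changes were negative for 5 members and positive for 5, with a median of -0.05 beside -0.01 over all genes tested. Most members varied more between mice of the same genotype than the typical gene, with 9 of 10 above the median within-genotype SD of 0.25 (log2 CPM). Rgs16 (SD 1.504) was at percentile 99.0 of all genes and Rgs9 (SD 0.96) at percentile 96.4, whereas Rgs7 (SD 0.14) was at percentile 24.7. The edgeR p-values set the difference between genotypes against the spread between single mice.

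Rgs4 is an R4 protein that acts on Gi/o and Gq signals in neurons. Its FPKM was 213, 113, 189 and 196 in WT-1015, WT-1041, WT-1061 and WT-1063, and 219, 151, 170.4 and 66.3 in DF-1018, DF-1037, DF-1059 and DF-1062. DF-1062 was the lowest of the 8 mice and DF-1018 the highest, with WT-1041 as the lowest WT mouse. Between genotypes Rgs4 differed by -0.24 on the log2 scale (standard error 0.36, edgeR adjusted p = 0.897). With DF-1037 and DF-1062 left out, it was 0.14 (standard error 0.26).

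Rgs2 is an R4 protein with a preference for Gq. It had an FPKM of 26.3, 23.1, 26.1 and 19.3 in the WT mice in the order above, and of 24.0, 14.6, 21.0 and 19.6 in the 16p11.2+/- mice. Only DF-1037 lay below the WT range. Its log2 fold change of -0.28 (standard error 0.17, edgeR adjusted p = 0.859) was within the spread between mice, and it was -0.10 (standard error 0.13) with the medium spiny neuron markers as a covariate. Without DF-1037 it was -0.156. Without DF-1018 it was -0.396, with an edgeR unadjusted p under 0.05, as for 1343 of the 18728 genes in that fit.

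Rgs8 is an R4 protein of neurons that acts on Gi/o. It had an FPKM between 18.6 and 25.6 in WT mice and between 18.9 and 27.2 in 16p11.2+/- mice. Its log2 fold change was 0.00 (standard error 0.16, 95% interval -0.36 to 0.36), so differences inside this interval are compatible with the values of these 4 mice per group. Rgs8 and Rgs16 are neighbours on chromosome 1, 40.0 kb apart, and the large spread of Rgs16 was not seen in Rgs8, whose highest and lowest mice differed 1.46-fold.

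Rgs16, an R4 protein that acts on Gi and Gq, spread most of the 10. In WT-1015, WT-1041 and WT-1061 its FPKM was 2.37, 2.23 and 2.06 (84, 80 and 79 counts), and in WT-1063 it was 20.9 (789 counts). The 16p11.2+/- mice had 9.57 in DF-1018, 28.1 in DF-1037, 2.84 in DF-1059 and 17.7 in DF-1062. Thus 1 WT mouse and 3 16p11.2+/- mice were well above the remaining 4, and the highest and lowest mice differed 13.6-fold. Fitted over all 8 mice, the log2 fold change was 1.06 (standard error 0.90, 95% interval -0.98 to 3.10, edgeR adjusted p = 0.859). Single mice decided its size. Without WT-1063 it was 2.68 (edgeR adjusted p = 0.512), without DF-1037 it was 0.51, and with DF-1037 and DF-1062 left out it was -0.13 (standard error 1.08).

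Rgs16 was high where the sum of the thalamus markers was high. Their summed FPKM was lowest in WT-1061, the mouse with the least Rgs16, and at or above 275 only in WT-1063, DF-1037 and DF-1062, the mice with the most. Single markers did not all follow the sum. Tcf7l2 was 18.2, 14.6 and 17.6 FPKM in WT-1063, DF-1037 and DF-1062. Calb2 was 23.5, 5.91 and 88.8 in these mice, and was lowest of the 8 mice in DF-1018 (3.12). Expressed as a percentage of the summed FPKM of the thalamus markers, Rgs16 was 4.47%, 3.32%, 5.74% and 7.04% in the WT mice and 6.04%, 10.2%, 4.79% and 6.10% in the 16p11.2+/- mice. The spread thereby shrank from 13.6-fold to 3.08-fold. The coefficient of variation of this ratio over the 8 mice was 34.7%, place 44 among the 18294 genes tested, where the median gene had 76.9% and the thalamus markers themselves had 31.6% to 83.8%. With the thalamus markers as a covariate, the log2 fold change of Rgs16 was 0.22 (standard error 0.16, edgeR unadjusted p = 0.210). With the medium spiny neuron markers as the covariate instead, it was 0.20 (standard error 0.78), so the smaller estimate was not particular to the thalamus markers. The genes whose log2 CPM followed Rgs16 most closely over the 8 mice were Zmat4 (Pearson r = 0.997), Plcb4 (r = 0.997), a phospholipase C that responds to Gq, and Rnf152 (r = 0.995). These correlations over 8 libraries are descriptions, and the libraries also differed in the marker sums given above.

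Rgs9 is the R7 protein that shortens dopamine and opioid receptor signals in medium spiny neurons. Its FPKM was 54.2, 41.6, 60.8 and 36.5 in WT-1015, WT-1041, WT-1061 and WT-1063. In DF-1018 and DF-1059 it was 57.4 and 52.4, inside the WT range, and in DF-1037 and DF-1062 it was 13.4 and 10.8. The 16p11.2+/- group therefore held a pair of mice like WT and a pair well below every WT mouse. For Rgs9 the log2 fold change was -0.53 (standard error 0.54, 95% interval -1.75 to 0.69, edgeR adjusted p = 0.868). With DF-1037 and DF-1062 left out it was 0.19 (standard error 0.21).

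Rgs9 kept a nearly fixed proportion to the medium spiny neuron markers. As a percentage of their summed FPKM it was 3.53%, 3.67%, 3.51% and 3.58% in the WT mice and 3.54%, 3.30%, 3.49% and 3.39% in the 16p11.2+/- mice. The highest and lowest of these percentages differed 1.11-fold, while Rgs9 itself differed 5.62-fold and the marker sum 5.43-fold. The coefficient of variation was 3.2%, the smallest of all 18294 genes tested, where the median gene had 84.0% and the 10 markers that make up the sum had 4.5% to 39.9%. With the markers as a covariate, the log2 fold change of Rgs9 was -0.02 with a standard error of 0.07. With the thalamus markers as the covariate instead, it was -0.25 (standard error 0.49). Drd1, Pde10a and Drd2 were the genes closest to Rgs9 in log2 CPM over the 8 mice (Pearson r = 0.998 for each), and Drd1 and Pde10a are among the 10 markers.

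**Figure D2:**
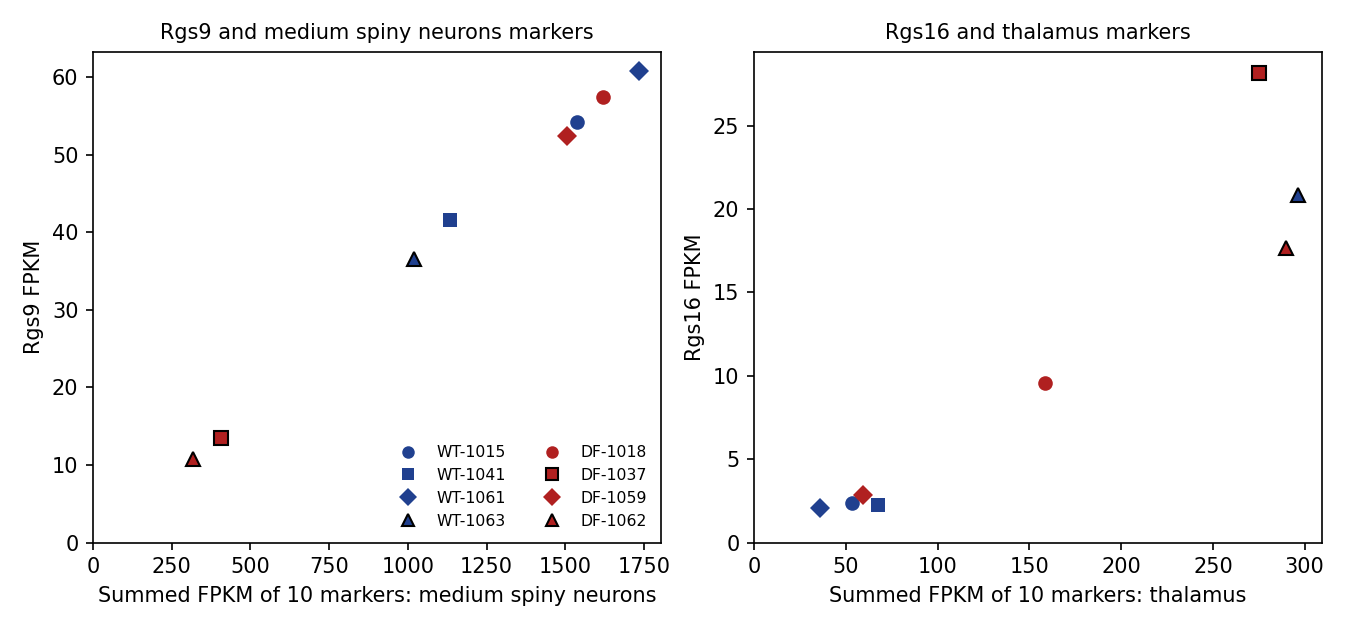
Left, Rgs9 FPKM against the summed FPKM of 10 medium spiny neuron markers, and right, Rgs16 FPKM against that of 10 thalamus markers, with 1 point per mouse (WT blue, 16p11.2+/- red; black outlines mark WT-1063, DF-1037 and DF-1062). Rgs9 stays between 3.30% and 3.67% of the marker sum in all 8 mice, and Rgs16 is at or above 17.7 FPKM only in the 3 mice with a thalamus sum of 275 or more.

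Rgs7, the other R7 member, is expressed widely in brain neurons. It was the steadiest member, with an FPKM of 9.03, 9.52, 9.25 and 10.5 in WT mice and of 11.0, 12.1, 8.96 and 11.4 in DF-1018, DF-1037, DF-1059 and DF-1062. In 3 of the 4 16p11.2+/- mice it was above every WT mouse, and in DF-1059 it was below them all. For Rgs7 the log2 fold change was 0.16 (standard error 0.10, edgeR adjusted p = 0.859), and 0.06 (standard error 0.08) with the thalamus markers as a covariate. Without DF-1037 it was 0.104. Without DF-1059 it was 0.247, with an edgeR unadjusted p under 0.05, as for 946 of the 18690 genes in that fit. In DF-1037 and DF-1062, where Rgs9 was lowest, Rgs7 was at its highest. The gap between these R7 genes was thus narrowest in that pair, with Rgs9 at 13.4 against Rgs7 at 12.1 in DF-1037 and 10.8 against 11.4 in DF-1062.

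The R7 proteins work in complexes, and the genes of their partners were also examined. Gnb5, the G beta subunit that stabilises them, averaged 59.3 ± 9.16 FPKM over the WT mice and 47.0 ± 16.4 over the 16p11.2+/- mice (SD, n = 4 each), with 34.5 in DF-1037 and 31.4 in DF-1062. The membrane anchor Rgs7bp averaged 103 ± 16.4 and 91.0 ± 34.5 in the same order, and the orphan receptor Gpr158 averaged 35.5 ± 6.29 and 29.2 ± 11.3 (SD, n = 4 each). All 3 were lowest of the 8 mice in DF-1037 or DF-1062, where the medium spiny neuron marker sum was also lowest, and the part of that sum in these values was not tested. Rgs9bp, the anchor of Rgs9 in photoreceptors, and Gpr179, a receptor partner of R7 proteins in the retina, were near the lower limit, with at most 47 and 94 counts in any mouse. Of these 5 genes, 0 passed an adjusted p of 0.05 and 0 an unadjusted p of 0.05, and Gpr179 had the smallest p (log2 fold change 1.06, standard error 0.50, edgeR unadjusted p = 0.0624).

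Rgs14, an R12 protein that also binds Ras-like GTPases, had an FPKM of 9.92, 9.04, 11.3 and 7.82 in WT mice and of 12.4, 6.66, 10.1 and 4.01 in 16p11.2+/- mice. DF-1037 and DF-1062 were again below every WT mouse, and DF-1018 was above them. Rgs14 had a fitted log2 difference of -0.21 (standard error 0.32, edgeR adjusted p = 0.900) with all mice, 0.25 (standard error 0.17) without that pair, and 0.17 (standard error 0.13) with the medium spiny neuron markers as a covariate. Among the members, the log2 CPM of Rgs14 followed that of Rgs9 most closely (Pearson r = 0.937 over 8 mice), and among the genes nearest to it were Trpc1 (r = 0.992) and Ccm2 (r = 0.990).

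Rgs10, the smallest R12 protein, is known from microglia as well as neurons. Its FPKM was 10.5, 12.3, 15.3 and 9.73 in WT mice and 13.8, 6.89, 11.9 and 13.0 in 16p11.2+/- mice. DF-1037 alone was below the WT range. For Rgs10 the log2 fold change was -0.09 (standard error 0.23, edgeR adjusted p = 0.936). The low value was not shared by the microglia markers (10 genes), whose summed FPKM was 142 in DF-1037, within the WT range of 114 to 154, and 96.2 in DF-1062, where Rgs10 was 13.0. Rgs10 is the one member on chromosome 7, between 128373621 and 128418758 (GRCm38), and starts 1165 kb beyond the last of the 17 genes of the deleted segment.

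Rgs12, a large R12 protein with several further domains, was the only member with an unadjusted p under 0.05. The WT mice lay close together, at an FPKM of 3.71, 4.11, 3.85 and 3.70, and the 16p11.2+/- mice had 4.50, 7.87, 5.72 and 4.02. Hence 3 of the 4 16p11.2+/- mice were above every WT mouse, and DF-1062 was inside the WT range. The log2 fold change was 0.51 (standard error 0.20, 95% interval 0.06 to 0.96), with an edgeR unadjusted p of 0.0319 and an adjusted p of 0.859. It was 0.29 without DF-1037, the highest mouse, and 0.66 without DF-1062. In the fit without DF-1037 and DF-1062 together, Rgs12 was again the 1 member of 10 called at an unadjusted p under 0.05 (log2 fold change 0.42, standard error 0.10, edgeR unadjusted p = 0.00502, adjusted p = 0.995), where 4.03% of all genes were. With the medium spiny neuron markers as a covariate 0 of 10 members were called so, against 3.13% of all genes, and the log2 fold change of Rgs12 was then 0.485 (standard error 0.23). The direction was positive under each of the 22 alternatives tried, while the unadjusted p was under 0.05 in 12 of them and the adjusted p in none.

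Rgs17, the RZ member, acts on Gz and other Gi subunits. Its FPKM was 14.7, 16.6, 17.5 and 18.1 in WT mice and 17.0, 17.2, 20.1 and 31.3 in 16p11.2+/- mice. DF-1059 and DF-1062 were above every WT mouse, and DF-1062 stood clear of the others. The log2 fold change was 0.32 (standard error 0.17, edgeR unadjusted p = 0.0933, adjusted p = 0.859), and without DF-1062 it was 0.13. Without DF-1037 it was 0.418, with an edgeR unadjusted p under 0.05. A larger share of all genes passed that limit in this fit than the 4.32% in the fit with all mice. In DF-1062 Rgs17 was the second most abundant member after Rgs4.

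**Figure D3:**
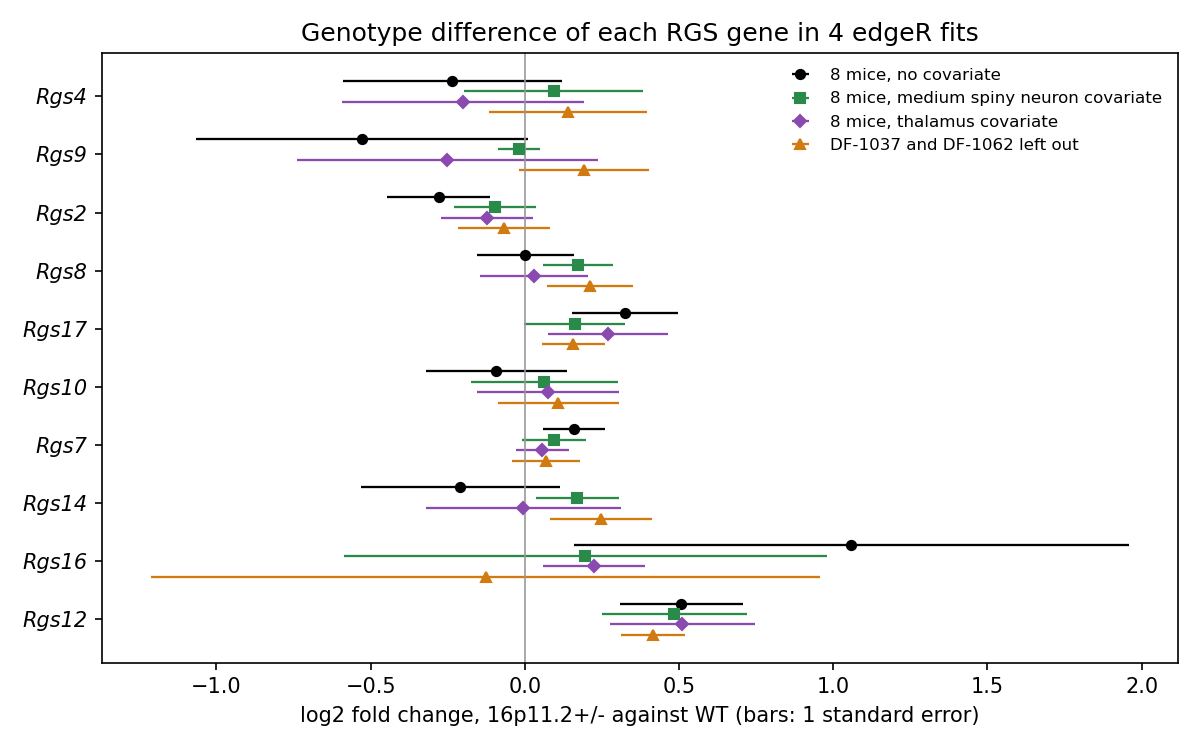
Log2 fold change (16p11.2+/- against WT, point) and its standard error (bar) for each RGS gene in 4 edgeR fits, marked by colour and symbol: 8 mice with no covariate, with the medium spiny neuron or the thalamus markers as covariate, and with DF-1037 and DF-1062 left out. For Rgs9 the estimate moves from -0.53 to -0.02 with the medium spiny neuron covariate and the bar shortens, and Rgs12 stays between 0.42 and 0.51.

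Mouse by mouse, the members fell into patterns that were not shared by all mice of a genotype. Relative to the WT mean of log2 CPM, Rgs9, Rgs14 and Rgs2 were lower in both DF-1037 (-1.82, -0.51 and -0.69) and DF-1062 (-2.22, -1.32 and -0.36). Rgs4 differed between this pair, at -0.21 in DF-1037 and -1.47 in DF-1062. Rgs16 went the other way in both, at 2.82 and 2.07, and Rgs7 did so by less, at 0.33 and 0.16. Rgs12 was higher in DF-1037 (1.02) and not in DF-1062 (-0.03), and Rgs17 the reverse (0.03 and 0.82). The pair with low medium spiny neuron markers therefore did not share 1 RGS profile. Over the 8 mice, Rgs7 followed Rgs16 (Pearson r = 0.891), Rgs14 followed Rgs9, and Rgs9 and Rgs16 ran against each other (r = -0.718) (descriptions over libraries that also differed in marker sums). The gene closest to each remaining member was Secisbp2 for Rgs2 (r = 0.991), Kcnq3, a potassium channel subunit, for Rgs4 (r = 0.982), Zfp804a for Rgs7 (r = 0.978) and Shmt1 for Rgs8 (r = 0.973). For Rgs10 it was Zfp977 (r = 0.986), for Rgs12 Fuk (r = 0.964) and for Rgs17 Emc1 (r = 0.989).

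**Figure D4:**
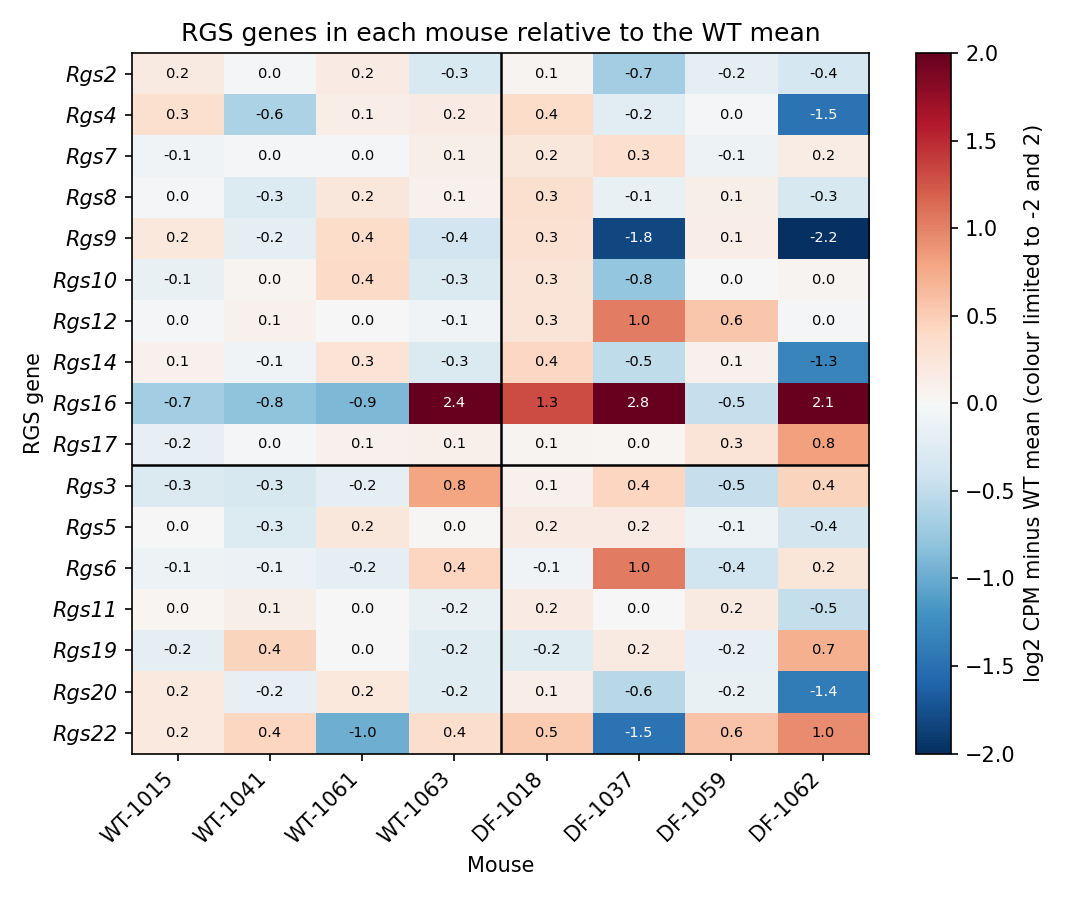
Log2 CPM minus the mean of the 4 WT mice for the 10 RGS genes (top) and 7 other RGS genes with enough counts (bottom), 1 column per mouse with WT to the left of the line; red is higher, blue is lower, and colours stop at -2 and 2. Rgs9, Rgs14 and Rgs20 are blue in DF-1037 and DF-1062, and Rgs16 is red in WT-1063, DF-1018, DF-1037 and DF-1062.

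Of the 11 other RGS genes, 7 had enough counts to be tested. Rgs5, a gene of pericytes and vascular smooth muscle, was the most abundant, averaging 39.1 ± 5.14 FPKM over WT mice and 38.7 ± 5.43 over 16p11.2+/- mice (SD, n = 4 each). It lies 45.7 kb from Rgs4 on chromosome 1. Rgs20, an RZ gene like Rgs17, averaged 13.3 ± 2.02 and 10.1 ± 3.85 (SD, n = 4 each), with 9.01 in DF-1037 and 5.30 in DF-1062, both below every WT mouse. The R7 gene Rgs11 averaged 11.5 ± 0.863 and 11.5 ± 1.91 (SD, n = 4 each). Rgs6, also of the R7 subfamily, ran from 3.79 to 5.95 in WT mice and from 3.36 to 9.08 in 16p11.2+/- mice. Rgs6 shared its high mice, WT-1063 at 5.95 and DF-1037 at 9.08, with Rgs16. Rgs19, Rgs3 and Rgs22 had WT means of 3.77, 3.16 and 0.83 FPKM. None of the 7 passed an unadjusted p of 0.05, and their log2 fold changes ran from -0.40 (Rgs20) to 0.30 (Rgs22). Rgs1, Rgs13 and Rgs18 had at most 8, 6 and 3 counts in any mouse, and Rgs21 had 0 in all 8.

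**Figure D5:**
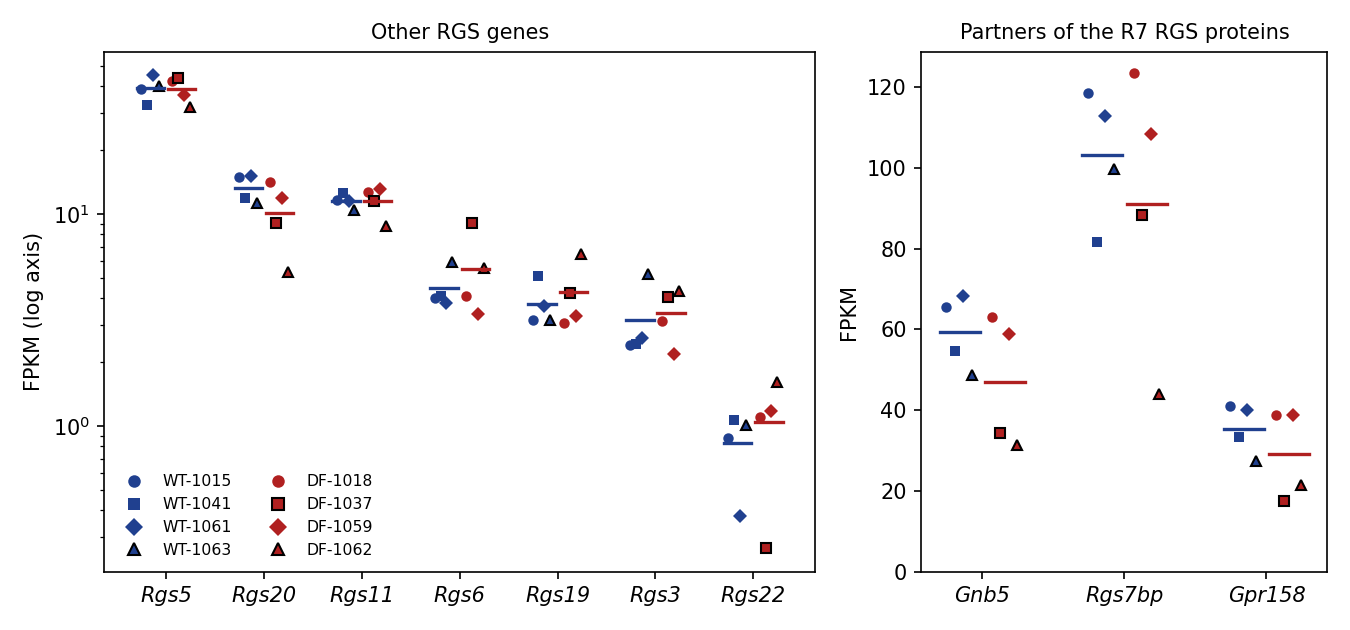
FPKM of 7 other RGS genes (left, log axis) and of 3 partners of the R7 proteins (right, linear axis from 0) in each mouse, with WT in blue, 16p11.2+/- in red and group means as lines; black outlines mark WT-1063, DF-1037 and DF-1062. Gnb5 and Gpr158 are lower in DF-1037 and DF-1062 than in every other mouse, and the groups overlap for all 10 genes.

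The G proteins, receptors and effectors on which RGS proteins act gave the same count of calls, with 0 genes past an adjusted p of 0.05 in each list. Of 11 G alpha genes, 2 had an unadjusted p under 0.05, against 4.32% of all genes tested. Gnal, the striatal and olfactory subunit that couples dopamine and adenosine receptors to adenylyl cyclase, was the most abundant, averaging 114 ± 13.3 FPKM over WT and 99.5 ± 37.0 over 16p11.2+/- mice (SD, n = 4 each), and Gnao1 and Gnai1 followed at 75.4 ± 8.23 and 63.1 ± 7.84 (SD, n = 4) in WT. Gnai3, a Gi subunit, had the smallest p (log2 fold change -0.23, standard error 0.07, edgeR unadjusted p = 0.0125, adjusted p = 0.859), and all 4 16p11.2+/- mice (12.4 to 13.2 FPKM) were below every WT mouse (13.8 to 16.1), where 2.83% of all genes had groups that did not overlap. The other was Gnas, which encodes Gs (log2 fold change 0.91, standard error 0.40, edgeR unadjusted p = 0.0482). Counts assigned to it gave 1.34 to 1.99 FPKM in WT mice and 1.55, 1.99, 2.66 and 6.58 in the 16p11.2+/- mice, with DF-1062 far above the rest. This WT level was at percentile 30.2 of the genes tested. Overlap with other genes was not examined for Gnas, so these values may not give the full level of Gs mRNA. Of 10 tested G beta and gamma genes 1 was called at an unadjusted p under 0.05, against the same 4.32%. This was Gnb4 (log2 fold change 0.50, standard error 0.18, edgeR unadjusted p = 0.0223), which lay between 2.74 and 3.286 FPKM in WT mice and between 3.288 and 6.07 in 16p11.2+/- mice. Gng7, the gamma subunit that pairs with Gnal in medium spiny neurons, was the most abundant at 205 ± 47.3 FPKM (SD, n = 4) in WT, ahead of Gnb1 at 136 and Gnb2 at 49.9, and was 68.3 and 53.6 in DF-1037 and DF-1062.

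Among 15 receptor genes tested, fitted changes were below 0 for 13, with a median log2 fold change of -0.30, and 0 had an unadjusted p under 0.05. Drd1 and Cnr1 were among the most abundant, at 63.2 ± 15.4 and 59.8 ± 24.3 FPKM in WT mice (SD, n = 4). Drd3 had the smallest p (log2 fold change 0.94, standard error 0.48, edgeR unadjusted p = 0.0830). Adora2a and Drd1 are also medium spiny neuron markers, so this list is not separate from the marker sum. Of 13 effector genes 0 had an unadjusted p under 0.05. Adcy5, the main adenylyl cyclase of the striatum, averaged 141 ± 27.1 FPKM over WT and 112 ± 68.2 over 16p11.2+/- mice (SD, n = 4 each), with Plcb1 and Adcy1 next at 35.8 and 35.0 in WT. Kcnj5 had the smallest p (log2 fold change 1.61, standard error 0.75, edgeR unadjusted p = 0.0612). Among 15 other G protein regulators, such as the arrestin Arrb1 (29.3 FPKM in WT), the receptor kinase Grk2 (28.9) and the chaperone Ric8b (24.7), 0 had an unadjusted p under 0.05. In this list Gpsm2 had the smallest (log2 fold change -0.38, standard error 0.18, edgeR unadjusted p = 0.0703).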

How the data were processed

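Total RNA of striatum from 8 mice, 4 of each genotype, was sequenced with paired reads. Per the study's methods, the authors trimmed poor bases and adapters, aligned with Hisat2 2.1.0 and summed reads per gene with Htseq-count. They deposited, for every gene and mouse, a raw count and an FPKM value. The submitters' processing notes instead list Bowtie 0.12.2, mm8 and mm9. The strand setting is not given in the sources used here. The deposited FPKM equals the count over a fixed gene length and the mouse's total, and for 95.7% of 17924 genes, the 10 members included, that length is the one in GENCODE M21 (GRCm38), from which positions come. A gene on the opposite strand overlaps 10.1% of the Rgs16 exons (at most 2 counts), 5.50% of Rgs12 (at most 1) and 0.73% of Rgs8 (at most 11). A table of the authors' own comparison (group means, log2 fold changes and p-values) and a summary of FPKM in bins were not used.

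The main test was edgeR's quasi-likelihood F test (edgeR 4.0.16, R 4.3.3) with TMM factors. Genes were kept by filterByExpr (at least 10 counts, 15 in total), and p was adjusted by Benjamini-Hochberg over 18294 genes with a threshold of 0.05. Standard errors follow from F and the fitted change. Log2 CPM used a prior count of 2. Totals of 15125051 to 16523429 gave each member at least 79 counts in every mouse, so spread between mice, not counting error, sets the precision. Within a genotype, pairs of libraries had a chi-square per degree of freedom of 8.88 to 62.9, far above sampling noise, and each was treated as 1 sample. Covariates were the mean log2 CPM of a marker list.

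The genes named are the 10 members, the other 11 RGS genes, and from each list of G protein genes (R7 partners, G alpha, G beta and gamma, receptors, effectors, other regulators) any gene past the threshold, the 3 with the highest WT FPKM and the one with the smallest p. For each marker list the first 2 genes and the sum are named, and of the 3 genes most correlated with each member (log2 CPM over 8 mice) all are given for Rgs9 and Rgs16, 2 for Rgs14 and the first for the others. Some genes that these rules select are not reported here. Rgs9bp, Gnas, Adora2a and the values of Gng7 in single mice were added after values were seen. The members and lists were chosen with earlier results of these data known. As alternatives, limma 3.58.1 was run as voom and as trend, the latter on log2(FPKM + 1) and log2(FPKM + 0.1). DESeq2 1.42.0, RLE factors, library totals, other filters, 4 marker covariates and leaving out each mouse were also tried. Leaving out DF-1037 and DF-1062 together and using the thalamus and medium spiny neuron markers jointly were chosen after seeing the data. The code was tested on simulated data. Promoter sequences are from RefSeq.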

Additional observations from a re-analysis of the deposited data

Results flagged for a closer look

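In 3 of the 34 groups of 4 mice examined (17 RGS genes in each genotype), 1 mouse lay apart from the other 3, with a gap to its nearest neighbour that took a larger share of the group's range than Dixon's 95% limit for 4 values allows. For independent, normally distributed values this occurs in about 1 of 20 groups. The 34 groups come from the same libraries and are not independent, and the share over all genes was not computed. The WT pairs with WT-1063 had a chi-square per degree of freedom of 36.6 to 37.2, against 8.88 to 13.25 for the other WT pairs. In each of the 3 groups the mouse apart was WT-1063. Rgs16 was at 20.9 FPKM there and at 2.06 to 2.37 in the remaining WT mice (share 0.983). Rgs3, an R4 gene, was at 5.21 and 2.42 to 2.60 (share 0.933), and Rgs6, an R7 gene, at 5.95 and 3.79 to 4.08 (share 0.868). WT-1063 also had the highest sum of thalamus markers among WT mice, 296 against 35.9 to 67.3, and the highest sum of choroid plexus markers, 4449 against 8.14 to 481. The part of these in the RGS values was not tested.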

How the results depend on the processing

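No RGS member passed an adjusted p of 0.05 under any of the 22 alternatives, with a lowest adjusted p of 0.512 (Rgs16 without WT-1063). At an unadjusted p under 0.05, 0 to 2 members were called. Rgs16 was called without WT-1063, where 1530 of 18641 genes were, and with the choroid plexus covariate (2.42), where 1219 of 18294 were. Rgs2, Rgs7, Rgs12 and Rgs17 kept their direction in all 22. With the medium spiny neuron covariate the sign turned for Rgs4 (0.094), Rgs10 (0.063) and Rgs14 (0.17), with the thalamus covariate for Rgs10 (0.075), and with both covariates for Rgs4 (0.021), Rgs10 (0.11) and Rgs14 (0.15). With DF-1037 and DF-1062 left out it turned for Rgs4 (0.14), Rgs9 (0.19), Rgs10 (0.11), Rgs14 (0.25) and Rgs16 (-0.13). Rgs8, with a log2 fold change near 0, turned with the cortical covariate (-0.042) and limma-voom (-0.007). With 1 mouse left out, log2 fold changes ranged from -0.21 to 0.089 for Rgs10, from -0.48 to 0.044 for Rgs14, from -0.48 to 0.035 for Rgs4, from -0.11 to 0.11 for Rgs8, from -0.94 to -0.22 for Rgs9 and from 0.51 to 2.68 for Rgs16. The median of the members, -0.05, was 0.13 with the medium spiny neuron covariate, 0.13 with both covariates and 0.15 without DF-1037 and DF-1062. Over all genes, 20 were called, against 31 with DESeq2, 12 with both covariates, 11 without DF-1037 and DF-1062, and 8 to 18 with 1 mouse left out. In the order by FPKM, 7 members changed place in 16p11.2+/- mice, and 0 to 4 did so with 1 WT mouse left out. The causes were not tested. No paired analysis was made, because the sources used here give no link between a WT mouse and a 16p11.2+/- mouse. With 4 mice per group, intervals such as -0.98 to 3.10 for Rgs16 limit what could be seen.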
